A study of Mus musculus with 8 samples.

Results

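Mitochondrial ribosomal proteins were followed in regulatory T cells (Tregs) that had been sorted from mouse spleen. The members were the genes whose symbol starts with Mrpl or Mrps and a digit, 78 of the 21524 genes in the deposited table. By symbol, 49 belonged to the large subunit (Mrpl) and 29 to the small subunit (Mrps). Every member had a mean of at least 10 normalised reads over the 8 libraries, the filter for testing, so all 78 were tested.

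By their treatment label, 4 libraries were IL-2 (numbers 41 to 44) and 4 were control (numbers 45 to 48), all from spleen. The text with the series describes an IL-2 mutein given with CTLA-4 Ig to C57BL/6 recipients of BALB/c hearts or kidneys, but the form of IL-2 in the IL-2 group, the treatment of the controls and the presence of a graft or of CTLA-4 Ig in these animals are missing from the labels. Ddx3y, a gene of the Y chromosome, was listed at 0 in libraries 41, 42 and 45 and had 215.5 to 460.5 reads in the other 5, so it was present in 2 of 4 IL-2 and 3 of 4 control libraries. Genotype, age, sex, the sorting gate and whether each library came from its own animal are not given in the labels, so the p-values refer to the spread among these 8 libraries, and that spread may be technical. The depth estimated from the recovered reads ran from 4953547 to 6399418 reads per library, and 12302 to 12688 genes had a read. Foxp3, the factor that defines Tregs, stood at 1883 ± 262 normalised reads in the IL-2 group and 1537 ± 290 in the control group (SD, n = 4 each), so that the label Treg and this marker go together in both. Of the 7 Treg markers listed, Il2ra and Tnfrsf18 were called higher with IL-2 and Cd4 lower (limma, adjusted p below 0.05). Their mean reads with IL-2 and in controls were 18107 and 6935, 2246 and 1327, and 2523 and 4136. Foxp3, Ctla4, Ikzf2 and Cd3e were not called. Over all genes tested, 10.8% were called higher and 9.14% lower.

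Mitochondria keep a small genome, and its messages are translated inside the organelle by a ribosome of their own. The rRNAs of this ribosome are mitochondrial transcripts, while all of its proteins are encoded in the nucleus, made in the cytosol and imported. The large subunit joins amino acids and holds the exit tunnel, and the small subunit binds the message and decodes it. Some of the proteins have counterparts in bacterial ribosomes and the others exist only in mitochondria. The products are core subunits of the respiratory chain and of ATP synthase, on which activated T cells draw.

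Promoter sequence was looked at because it is a feature that the choice by symbol did not use. RefSeq promoters (build GRCm38.p6, 250 bases before to 50 after the annotated start, 1 start per gene) were found for 69 of the 78 members, and were compared with those of 17492 protein-coding genes, members included. Motifs were searched on both strands. The consensus NRF1 motif, with 1 free position, read by a regulator of nuclear genes for mitochondria, was found in 13 of the 69 (18.8%) and in 6.6% of all promoters. The ETS motif CCGGAAG, which the GABP complex binds, was found in 25 (36.2%) against 11.9%, and the YY1 motif AAGATGGC in 12 (17.4%) against 3.22%. At least 1 of these 3 was present in 42 of the 69 (60.9%) and in 19.5% of all promoters. The 17492 genes were not limited to those expressed here. Whether the excess is particular to the members was not tested.

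The other motifs searched were no more frequent in the members. The E-box CACGTG was in 5 (7.25%) against 7.9%, the CCAAT box in 27 (39.1%) against 39.0%, and the TATA box TATAAA in 4 (5.8%) against 13.3%. The NRF1 motif was in 10 of 43 large-subunit and 3 of 26 small-subunit promoters, and the ETS motif in 14 of 43 and 11 of 26. These are matches of letters only. The median difference between IL-2 and control libraries was 0.13 on the log2 scale for members with the ETS motif and 0.24 for those without, and 0.00 and 0.24 for the NRF1 motif. It was 0.30 and 0.15 for the YY1 motif, 0.37 and 0.18 for the E-box, 0.23 and 0.18 for the CCAAT box and 0.48 and 0.16 for the TATA box, and none of these differences was tested.

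**Figure D1:**
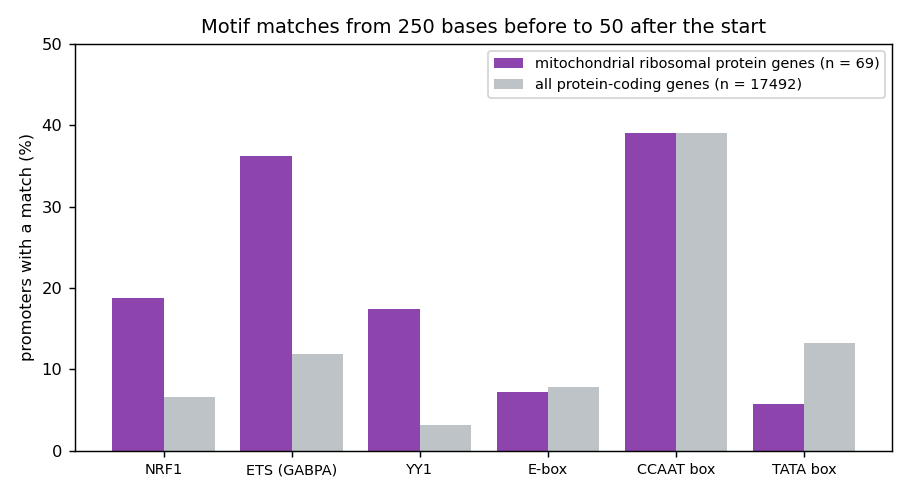
Percent of promoters (y axis) with at least 1 match to each motif, for 69 members (purple) and 17492 protein-coding genes (grey). The members stand above all genes for NRF1, ETS and YY1, at their level for the E-box and CCAAT box, and below for the TATA box.

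The promoters of the 4 members called higher with IL-2, and of Mrpl17, the gene that leaned most to the other side, are shown as the 110 bases before and 10 after the start, read 5′ to 3′ on the gene's strand. Capitals mark matches to the motifs above. Mrpl52 (chr14:54426799-54426918, plus strand) has a pair of ETS matches and Mrpl33 (chr5:31613841-31613960, plus strand) an ETS match at the start and a CCAAT box. Mrpl20 (chr4:155802768-155802887, plus strand) has an E-box, Mrps15 (chr4:126046818-126046937, plus strand) no match in this stretch, and Mrpl17 (chr7:105811078-105811197, minus strand) an NRF1 match. Over the full promoter window, Mrpl52 and Mrpl33 had the ETS motif, Mrpl20, Mrpl33 and Mrps15 the CCAAT box, and none of the 4 genes called higher had the NRF1 or YY1 motif.
Mrpl52: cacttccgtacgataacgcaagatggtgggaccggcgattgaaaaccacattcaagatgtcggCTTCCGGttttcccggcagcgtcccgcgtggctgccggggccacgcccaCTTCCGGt
Mrpl33: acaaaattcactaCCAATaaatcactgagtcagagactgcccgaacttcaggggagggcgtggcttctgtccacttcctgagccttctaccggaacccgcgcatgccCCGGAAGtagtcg
Mrpl20: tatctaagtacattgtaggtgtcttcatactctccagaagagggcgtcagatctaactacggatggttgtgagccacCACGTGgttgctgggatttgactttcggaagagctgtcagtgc
Mrps15: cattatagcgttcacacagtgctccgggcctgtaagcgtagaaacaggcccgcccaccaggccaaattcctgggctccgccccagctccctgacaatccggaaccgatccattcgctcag
Mrpl17: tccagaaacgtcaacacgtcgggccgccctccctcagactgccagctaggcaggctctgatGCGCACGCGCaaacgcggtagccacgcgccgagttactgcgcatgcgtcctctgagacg

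Which of these transcripts differed under the treatment was asked of each gene in turn. Few members passed the test singly: 3 of 49 large-subunit genes (Mrpl52, Mrpl20 and Mrpl33) and 1 of 29 small-subunit genes (Mrps15) rose, and 0 fell. That is 6.12% and 3.45% called, 5.13% of the 78 together, where 20% of all 10822 tested genes passed, 10.8% as higher and 9.14% as lower (limma on log2 of normalised reads plus 5, adjusted p below 0.05). Without adjustment, p was below 0.05 for 6 large-subunit genes on the higher and 1 on the lower side, and for 6 and 0 small-subunit genes, beside 16.7% and 15.5% of all genes, 32.2% in both directions. Among the 7201 tested genes whose mean reads lay within the members' own range, 17.6 to 424.9, 14.8% passed. On the deposited scale, whose filter left 6 large-subunit and 3 small-subunit genes, 1 and 0 rose, beside 16.8% of the 5261 genes tested there as higher, 14.6% as lower and 31.4% in all.

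The differences nevertheless leaned upward in both subunits. The median log2 difference, IL-2 minus control, was 0.19 in the large subunit and 0.20 in the small, beside -0.01 over all genes tested. The difference was above 0 for 34 of 49 and 20 of 29 members (69.4% and 69.0%), beside 48.6% of all genes. The 4 IL-2 libraries lay wholly above the 4 controls for 9 large-subunit and 4 small-subunit genes. These are 18.4% and 13.8%, and 16.7% of the 78 together, beside 12.9% of all genes, so the small subunit stood near the share of all genes. The IL-2 libraries lay wholly below the controls for 0 members, beside 10.9% of all genes. Over the alternatives fitted on log2 reads the medians kept between 0.14 and 0.24 for the large subunit and between 0.13 and 0.21 for the small, with that of all genes between -0.06 and -0.01.

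**Figure D2:**
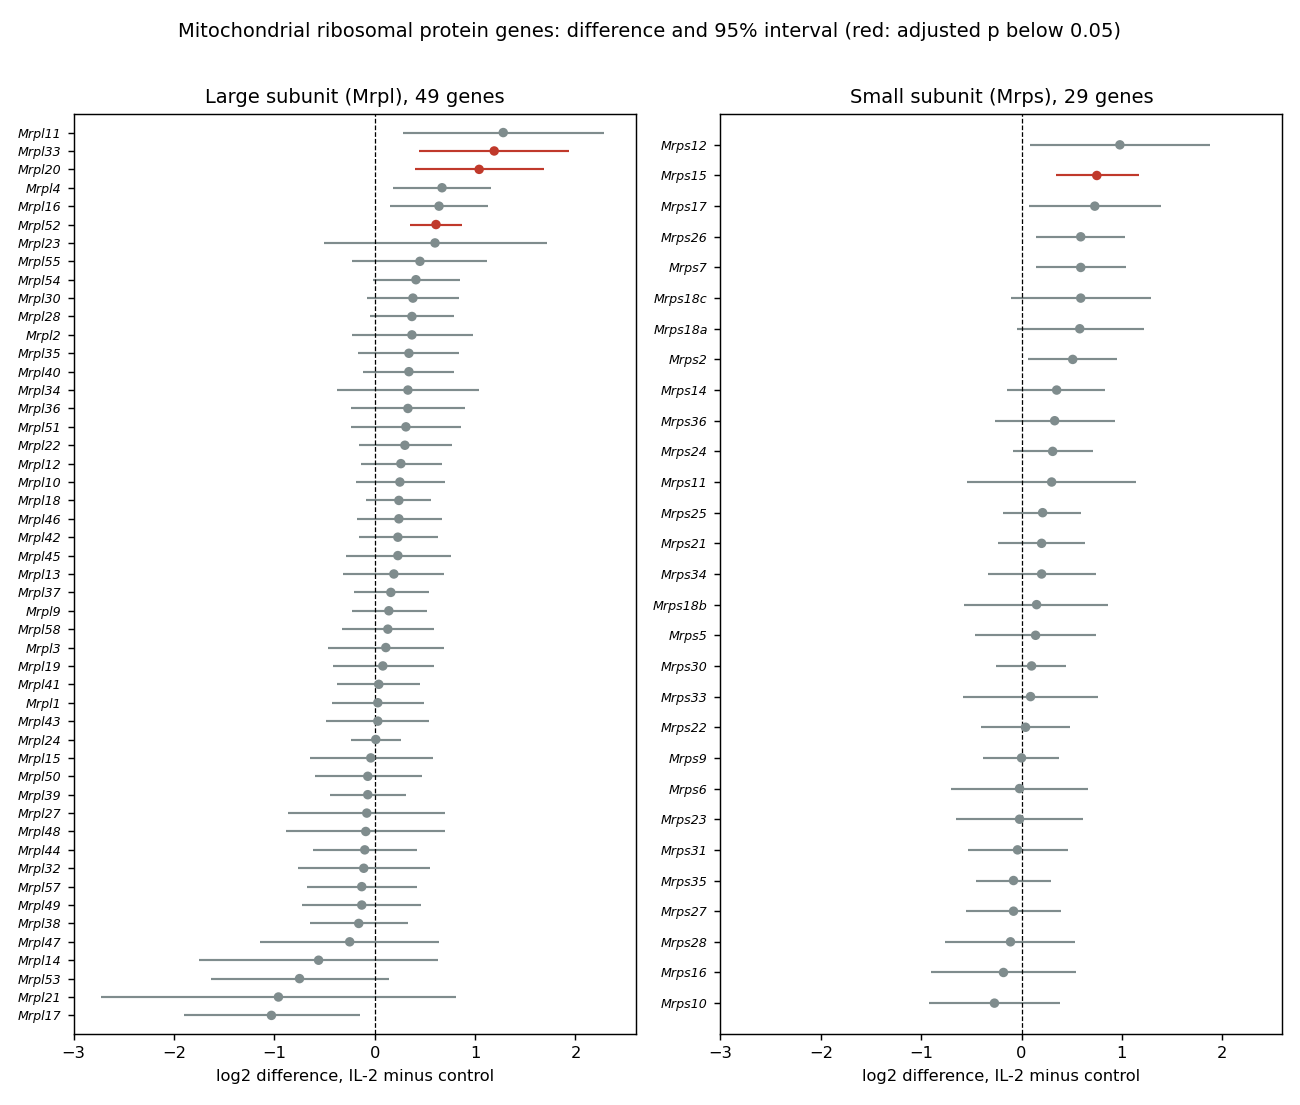
Log2 difference, IL-2 minus control (x axis), with its unadjusted 95% interval for each of 49 large-subunit genes (left) and 29 small-subunit genes (right), ordered by size; red marks adjusted p below 0.05. Most intervals cross 0 and more points lie to the right of 0 than to the left, 34 of 49 and 20 of 29.

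Summed over the subunit, the reads separated the groups. The 49 large-subunit genes held 6407, 6593, 6568 and 6835 normalised reads in IL-2 libraries 41 to 44 and 5816, 5984, 5659 and 5499 in control libraries 45 to 48, 1.15 times as many with IL-2. The 29 small-subunit genes held 3710, 3453, 3556 and 3722 against 3053, 3136, 3000 and 3142, 1.17 times as many. In both subunits the lowest IL-2 library lay above the highest control. As a share of each library's reads, the large subunit was 1.11 times and the small subunit 1.13 times as high with IL-2, again without overlap. Leaving out the 4 members that passed gave sums of 5879 ± 154 against 5314 ± 157 for the other 46 large-subunit genes and 3398 ± 140 against 2960 ± 57 for the other 28 small-subunit genes (SD, n = 4 each). These sums are a description and were not tested. In sorted cells in bulk, more cells of a type and more RNA per cell cannot be told apart.

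**Figure D3:**
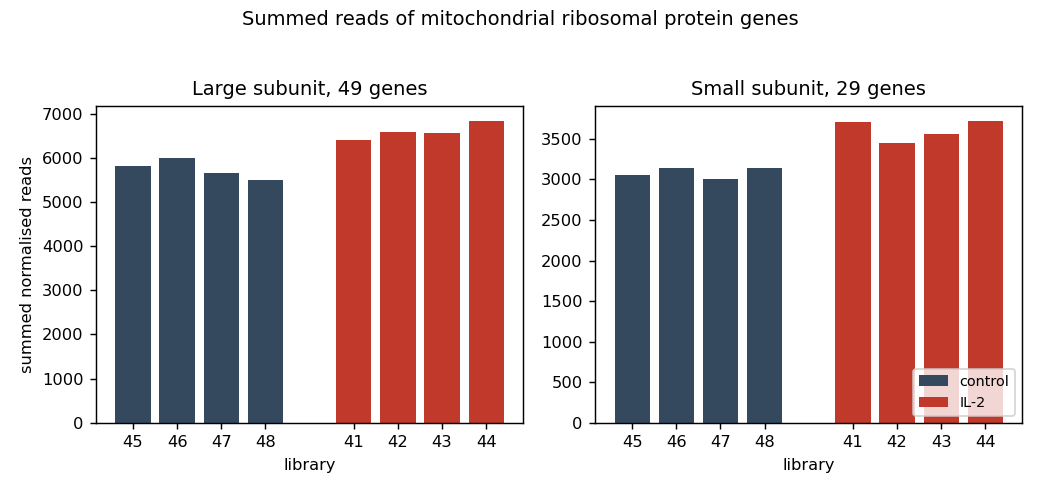
Summed normalised reads (y axis, from 0) of the large-subunit genes (left) and small-subunit genes (right) in each library (x axis), controls dark and IL-2 red. The IL-2 bars run from 6407 to 6835 and from 3453 to 3722, above the control bars at 5499 to 5984 and 3000 to 3142.

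Markers of other states and cells moved between the same libraries. The 12 proliferation genes (Mki67, Pcna, Mcm2 and others) summed to 14065 to 24193 reads with IL-2 and 6967 to 9122 in controls, 11 of the 12 having passed as higher. Beside this list and the marker lists that follow, 10.8% of all genes tested passed as higher and 9.14% as lower. Library 44 was the highest in that sum and also in the sums of both subunits. The 9 B cell genes in the table summed to 121 to 241 against 489 to 606, and 3 of them were tested. Cd74 and Cd22 passed as lower, and Cd79b stood at a mean of 42.0 reads in controls and 60.1 with IL-2 (limma adjusted p = 0.637). The defining gene Ms4a1 averaged 0 reads with IL-2 and 0.7 in controls. The 12 myeloid genes summed to 1002 to 1251 against 1839 to 2079, nearly all of it Ctss and Cst3, with Cd14 and S100a9 at 0 throughout. Of these Ctss fell, from a mean of 1663 to 847 reads (limma adjusted p = 8.48e-05), and Cst3 had 195.1 in controls and 199.6 with IL-2 (adjusted p = 0.903). Among myeloid genes with too few reads to be tested, Lyz2 had 0 reads in each IL-2 library and 5.5 to 14.5 in controls. Adgre1 had 0 to 2.3 with IL-2 and 2.7 to 7.8 in controls. Fcer1g and S100a8 went the other way, with means of 6.1 and 0.2 with IL-2 and 3.2 and 0 in controls. The 8 genes of CD8 T cells and NK cells summed to 128 to 195 against 199 to 278, with Klra7 at 0 throughout and 2 of the 5 tested having passed as lower. These were Eomes, at a mean of 58.8 reads in controls and 7.3 in the IL-2 group (limma adjusted p = 0.00417), and Klrb1c, at 36.4 and 2.9 (adjusted p = 0.00919), while Prf1 stood at 53.1 and 76.9 (adjusted p = 0.235). The 8 genes of red cells and platelets summed to 0 to 43 against 1 to 108. Their part in the members' values was not tested.

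In the large subunit the smallest adjusted p was that of Mrpl52, a protein found only in mitochondrial ribosomes. Its normalised reads were 458, 493, 422 and 478 in the IL-2 libraries and 291, 338, 319 and 264 in the controls. The groups did not overlap and the libraries within each group were close together. The rise was 1.53-fold (limma log2 difference 0.61 ± 0.12 SE, adjusted p = 0.0037), and the gene passed under all 22 alternatives that were run.

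Mrpl20, the counterpart of a bacterial protein that binds rRNA early in assembly, had 131, 125, 168 and 140 reads with IL-2 and 60.0, 115, 70.1 and 36.9 in controls. Control library 46 came close to the IL-2 group and the other 3 controls lay well below. Its mean was 2 times the control mean (limma log2 difference 1.04 ± 0.30 SE, adjusted p = 0.0258). The call was lost when IL-2 library 43 (limma adjusted p = 0.071) or 44 (0.0514) was left out, or without control library 45 (0.059) or 48 (0.0601), and its log2 difference then stayed between 0.79 and 1.04.

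Mrpl33, a small protein with a bacterial counterpart, had 104, 153, 81.7 and 136 reads with IL-2 and 81.6, 29.5, 67.8 and 30.9 in controls. The lowest IL-2 library and the highest control all but met. Its mean was 2.26 times the control mean (limma log2 difference 1.19 ± 0.35 SE, adjusted p = 0.0293). This call was lost in 8 of 20 alternatives (limma adjusted p up to 0.0842), among them those without IL-2 library 41 (0.0525), 42 (0.0842) or 44 (0.0712) and without control library 46 (0.0787) or 48 (0.0791). With the presence of Ddx3y as a covariate the adjusted p was 0.0512. In GENCODE M21, 107 of the 478 exon bases of Mrpl33 also lie in exons of Gm43809 on the same strand, so its reads may have been divided between the genes.

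In the small subunit the gene that rose was Mrps15, whose bacterial counterpart starts the folding of the rRNA's central part. Its reads were 157, 193, 253 and 246 with IL-2 and 113, 128, 111 and 136 in controls. Each IL-2 library lay above each control, with libraries 43 and 44 highest. The rise was 1.74-fold (limma log2 difference 0.75 ± 0.19 SE, adjusted p = 0.0153), and it passed in all 21 alternatives that tested it, the adjusted p reaching 0.0488.

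**Figure D4:**
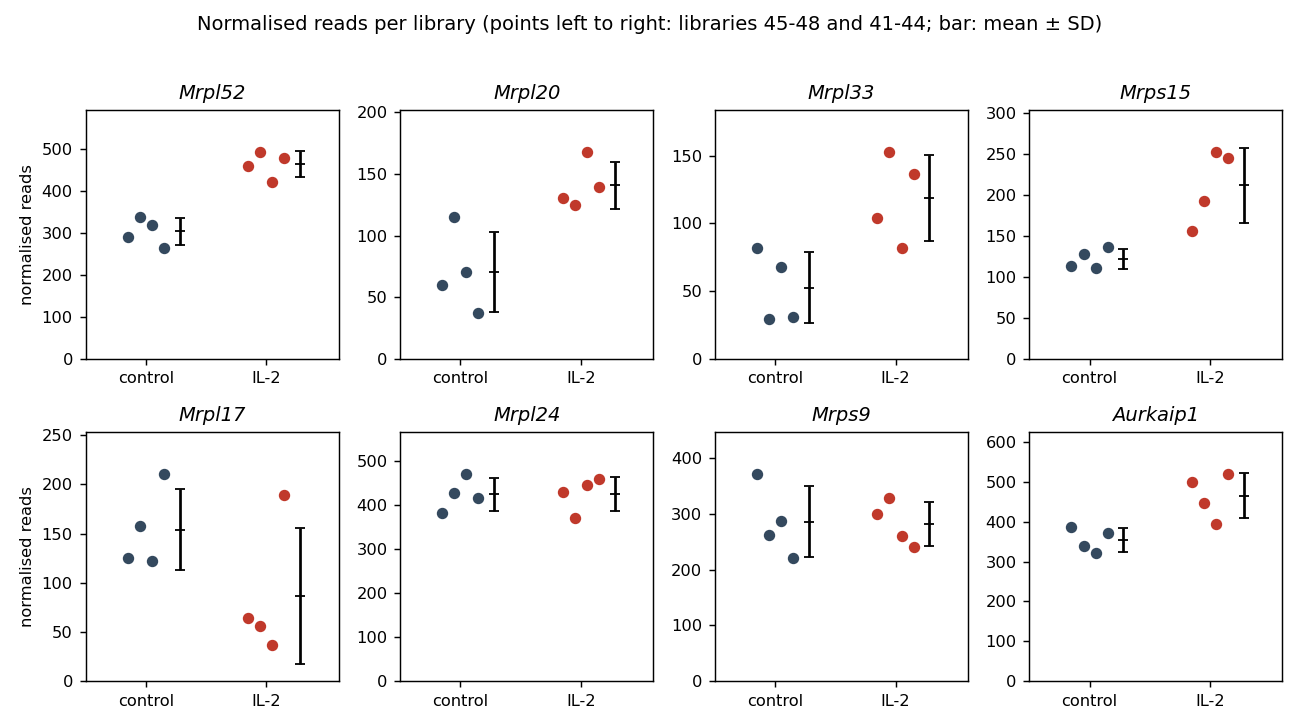
Normalised reads per library (y axis, from 0) of 8 genes, control libraries 45 to 48 dark and IL-2 libraries 41 to 44 red, with the mean and SD beside each group. Mrpl52, Mrpl20, Mrpl33, Mrps15 and Aurkaip1 show no overlap, Mrpl17 has 3 low IL-2 libraries and library 44 high, and Mrpl24 and Mrps9 have groups at the same level.

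A further 6 large-subunit genes had groups that did not overlap without passing: Mrpl4, Mrpl11, Mrpl16, Mrpl22, Mrpl28 and Mrpl54. Mrpl4, which lines the exit tunnel in bacteria, had 144 to 193 reads with IL-2 and 71.1 to 138 in controls (limma adjusted p = 0.057), and passed without control library 48 (adjusted p = 0.029). Mrpl16 had 108 to 137 against 55.6 to 101 (adjusted p = 0.064), and passed without control library 45 (adjusted p = 0.046) and with a variance model without trend (adjusted p = 0.0467). Mrpl22 had 78.2 to 101 against 62.4 to 76.6 (adjusted p = 0.36), Mrpl28 had 100.1 to 143 against 89.0 to 94.5 (adjusted p = 0.211), and Mrpl54 had 100.5 to 156 against 89.3 to 97.2 (adjusted p = 0.172). In all 6 genes the gap between the groups was only a few reads wide.

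The stalk is the arm of the large subunit that recruits translation factors, and Mrpl10, Mrpl11 and Mrpl12 belong to its base and arm. With all libraries Mrpl11 had the highest difference of the 78 members, with 78.9, 94.7, 60.9 and 120 reads with IL-2 and 52.9, 57.3, 37.9 and 7.9 in controls. Control library 48 was the lowest, and the difference did not pass (limma log2 difference 1.28 ± 0.46 SE, adjusted p = 0.0717). Without that library the log2 difference was 0.76, below that of Mrpl33 in the same fit, and on the deposited scale with the same genes the adjusted p was 0.0494. Mrpl10 had 145 to 271 reads with IL-2 and 157 to 176 in controls (adjusted p = 0.44). Mrpl12, which also binds the mitochondrial RNA polymerase, had 151 to 259 against 155 to 188 (adjusted p = 0.37). The controls of Mrpl10 and Mrpl12 were close together and the IL-2 libraries spread on both sides of them.

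On the lower side, Mrpl17, another protein with a bacterial counterpart, was the only member with an unadjusted p below 0.05. Its reads were 64.4, 55.5, 36.3 and 189 with IL-2 and 125, 158, 122 and 211 in controls. The first 3 IL-2 libraries lay below every control, and library 44 lay among the controls. The difference did not pass with all libraries (limma log2 difference -1.03 ± 0.40 SE, adjusted p = 0.0954) and did without library 44 (log2 difference -1.48, adjusted p = 0.00419). Without that library the count of large-subunit genes called higher was 1 in place of 3, and the count called lower was 1 in place of 0.

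Mrpl21 and Mrpl53 also stood on the lower side with wide intervals. Mrpl21 had 120, 106, 0 and 71.2 reads with IL-2 and 60.7, 108, 105 and 86.2 in controls. It was listed at 0 in library 43, which alone set its difference of -0.96 (limma adjusted p = 0.465), since the other IL-2 libraries lay on the level of the controls. Without library 43 the log2 difference was 0.13. Mrpl53, specific to mitochondria, had 7.7 to 39.0 reads against 33.7 to 49.7 (log2 difference -0.75, adjusted p = 0.232, and -0.38 without library 41), and all of its exon bases lie in exons of other annotated genes on the same strand.

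The members closest to no difference included well-measured genes. Mrpl24, a protein of the tunnel exit in bacteria and the member with the most reads, had 430, 371, 445 and 458 with IL-2 and 382, 427, 471 and 415 in controls. The groups lay on top of each other, and the 95% interval of the log2 difference ran from -0.24 to 0.26. Mrpl43 and Mrpl1 had 120 to 188 against 102 to 194 reads and 122 to 236 against 138 to 181, with intervals of -0.49 to 0.54 and -0.43 to 0.49. Mrps9, whose bacterial counterpart touches the tRNA under decoding, had 301, 328, 260 and 242 against 373, 263, 287 and 221, with an interval of -0.38 to 0.37. For Mrps6 and Mrps23 the intervals were -0.70 to 0.66 and -0.65 to 0.61. In GENCODE M21, 305 of the 846 exon bases of Mrps6 also lie in exons of other genes on the same strand.

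In the small subunit, Mrps2, Mrps7 and Mrps26 had groups that did not overlap without passing. Mrps2 had 122 to 154 reads with IL-2 and 73.6 to 120 in controls (limma adjusted p = 0.105). Mrps7, of the head of the subunit, had 101 to 163 against 79.1 to 96.3 (adjusted p = 0.0663). With IL-2 library 43 left out Mrps7 passed, at an adjusted p of 0.0366. Mrps26, specific to mitochondria, had 105 to 125 against 65.8 to 93.8 (adjusted p = 0.064). With all libraries the largest difference of the subunit was that of Mrps12, a protein of the decoding centre, with 60.9, 105, 50.8 and 92.4 reads against 49.2, 12.2, 39.8 and 57.1. Its groups overlapped and it did not pass (limma log2 difference 0.98 ± 0.41 SE, adjusted p = 0.121). Without control library 46 the log2 difference of Mrps12 was 0.57, below the 0.78 of Mrps15. Mrps17 stood at 150 to 231 against 61.5 to 174 (adjusted p = 0.114) and passed without control library 46 (adjusted p = 0.0406). The lowest difference was that of Mrps10, -0.27 (adjusted p = 0.583), which was -0.04 without control library 45.

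Symbols do not always match the place of a protein in the ribosome. Mrps18a, Mrps18b and Mrps18c are paralogs of which Mrps18c sits where the bacterial counterpart does, Mrps18b elsewhere in the small subunit, and Mrps18a in the large subunit. Mrps18a had 118, 101, 130 and 105 reads with IL-2 and 45.6, 76.2, 62.0 and 133 in controls (limma log2 difference 0.58 ± 0.29 SE, adjusted p = 0.193). Control library 48 lay above all IL-2 libraries, and the gene passed without it (log2 difference 0.86, adjusted p = 0.0416). Without control library 45 its log2 difference was 0.37 (adjusted p = 0.419). Mrps18b had 44.6 to 91.4 against 42.5 to 112 (log2 difference 0.15, adjusted p = 0.807) and Mrps18c had 69.9 to 107 against 28.7 to 86.2 (log2 difference 0.59, adjusted p = 0.232, and 0.27 without control library 46). Of the 638 exon bases of Mrps18c in GENCODE M21, 174 also lie in exons of Gm43511 on the same strand. Differences between the paralogs were not tested.

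Mrps30 also sits in the large subunit, at 187 to 251 reads with IL-2 and 189 to 252 in controls (limma adjusted p = 0.729). Mrps36 is now counted to the 2-oxoglutarate dehydrogenase complex and not to the ribosome, and had 63.6 to 133 against 54.3 to 85.4 (adjusted p = 0.447). Grouped by place in structures, 3 of 51 large-subunit and 1 of 26 small-subunit genes were higher, with medians of 0.19 and 0.17. The share called higher was 10.8% over all genes. Mrpl58, a hydrolase that frees stalled chains and is built into the subunit, had 123 to 209 against 129 to 194 (adjusted p = 0.723), and Mrpl45, which anchors the ribosome to the inner membrane, 98.6 to 155 against 82.4 to 165 (adjusted p = 0.559). The groups of these 4 genes overlapped.

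Proteins with bacterial counterparts and proteins specific to mitochondria were set apart by name only. In the large subunit, 2 of 29 shared and 1 of 20 specific genes were higher, with median differences of 0.25 and 0.08. In the small subunit these were 1 of 16 and 0 of 12, with medians of 0.30 and 0.09. In neither subunit did a gene of either class fall. Over all genes tested, 10.8% passed as higher and 9.14% as lower. Without adjustment, p was below 0.05 on the higher side for 5 of 29 shared and 1 of 20 specific genes in the large subunit. In the small subunit it was so for 5 of 16 and 1 of 12, beside 16.7% of all genes. The difference between the classes was not tested.

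The ribosome has 5 further proteins whose symbols do not start with Mrp. Aurkaip1, of the small subunit, was the member of these that rose, with 500, 447, 396 and 521 reads with IL-2 and 386, 340, 321 and 372 in controls. The groups did not overlap, but the margin was narrow (limma log2 difference 0.38 ± 0.12 SE, adjusted p = 0.0453). The call was lost in 13 of 22 alternatives, among them those without IL-2 library 41, 42 or 44 and without any 1 of the controls, with limma adjusted p up to 0.115. Dap3, an early GTP-binding subunit, stood at 326 ± 57.3 against 334 ± 61.3 (adjusted p = 0.915). Ptcd3, Chchd1 and Gadd45gip1 had log2 differences of 0.59, 0.17 and 0.16 and did not pass (adjusted p = 0.415, 0.645 and 0.624). Control library 45 had 35.4 reads of Ptcd3 and the other controls 160.3 to 261.8, and its log2 difference was 0.03 without library 45 and 0.93 without library 46. That of Chchd1 was 0.05 without library 42, and that of Gadd45gip1 0.06 without library 46.

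Genes that build and serve this ribosome were taken from lists of known function. Of 25 assembly genes, 2 rose and 0 fell (limma, 3 and 1 at an unadjusted p below 0.05), with a median of -0.01. Of all genes tested, 10.8% rose and 9.14% fell (16.7% and 15.5% at an unadjusted p below 0.05). Rbfa, which matures the small-subunit rRNA, had 341, 353, 270 and 290 reads with IL-2 and 227, 202, 196 and 222 in controls (log2 difference 0.55 ± 0.14 SE, adjusted p = 0.0149). Noa1, an assembly GTPase, had 133, 145, 131 and 153 against 101, 96.5, 70.1 and 63.4 (log2 difference 0.75 ± 0.21 SE, adjusted p = 0.025). Both genes had groups that did not overlap, and Noa1 lost its call when library 42, 44, 47 or 48 was left out (limma adjusted p = 0.057, 0.0614, 0.0637 and 0.0684).

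Of 19 translation factors and message handlers, 0 rose and 0 fell (limma, 0 and 1 at an unadjusted p below 0.05), with a median of -0.11. Beside this list and those that follow here, 10.8% of all genes rose and 9.14% fell. Of 20 genes that charge mitochondrial tRNAs, Tars2, the threonine enzyme, rose and 0 fell, with a median of 0.07. Its reads were 294, 418, 501 and 485 with IL-2 and 160, 281, 264 and 283 in controls (log2 difference 0.78 ± 0.21 SE, adjusted p = 0.0222), and the call was lost with library 43 or 44 left out and without trend (limma adjusted p = 0.0652, 0.0582 and 0.0653). Of 14 genes for transcription and copying of mitochondrial DNA, 0 rose and 1 fell, with a median of -0.04. This was Polg, the DNA polymerase, with 222, 230, 208 and 242 reads against 269, 426, 415 and 279 (log2 difference -0.58 ± 0.17 SE, adjusted p = 0.032). Its call was lost without IL-2 library 41, 42 or 43 or control library 46 or 47 (limma adjusted p = 0.0661, 0.0572, 0.0758, 0.0961 and 0.0971), without trend (0.0643) and with Ddx3y as a covariate (0.0588).

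The messages this ribosome translates were measured far more deeply than its proteins. Of 13 mitochondrially encoded protein genes, 4 rose and 0 fell (limma, 7 and 0 at an unadjusted p below 0.05), with a median of 0.18. That is 30.8% called, beside 20% of all genes. The rise of mt-Nd5, a subunit of complex I, was from 9685, 8980, 8617 and 8171 reads in controls to 11473, 12069, 11304 and 12455 (log2 difference 0.42 ± 0.06 SE, adjusted p = 0.000691). No IL-2 library overlapped a control for that gene. The extremes of the list were mt-Atp6, of ATP synthase, with a log2 difference of 0.43 (adjusted p = 0.00798), and mt-Co2, of complex IV, with -2.41 (adjusted p = 0.275). The call of mt-Atp6 was lost with quantile normalization (limma adjusted p = 0.0748) and without trend (0.066). The value of mt-Co2 was uneven, at 2204, 1190, 0 and 274 reads with IL-2 and 1010, 623, 1891 and 2415 in controls, and it was listed at 0 in library 43, where mt-Co1 had 33604. Without library 43 the log2 difference of mt-Co2 was -0.54. The reads of mt-Co3 were uneven too, at 4256, 750, 631 and 645 with IL-2 and 430, 849, 3637 and 474 in controls. Its log2 difference was 0.26 ± 0.69 SE (limma adjusted p = 0.841). The rRNAs of this ribosome, mt-Rnr1 and mt-Rnr2, were not analysed here.

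Of 9 tested regulators of mitochondrial biogenesis, 2 rose and 1 fell (limma), beside 10.8% and 9.14% of all genes. The median of these regulators was -0.19. Myc, a driver of cell growth, had 692, 1021, 1079 and 895 reads with IL-2 and 350, 432, 297 and 390 in controls (log2 difference 1.31 ± 0.15 SE, adjusted p = 0.000112). Pprc1, a coactivator of this programme, had 519, 539, 503 and 418 against 344, 338, 414 and 377 (log2 difference 0.42 ± 0.12 SE, adjusted p = 0.0285). Gabpb1, which forms the GABP complex with Gabpa, fell, with 370, 347, 350 and 302 against 574, 368, 474 and 627 (log2 difference -0.55 ± 0.16 SE, adjusted p = 0.0292). The calls of Pprc1 and Gabpb1 were lost in 8 and 7 of 22 alternatives (limma adjusted p up to 0.0756 and 0.0874), for Pprc1 without library 41, 42, 43, 45, 46 or 48 and for Gabpb1 without library 42, 43, 44, 45, 47 or 48, for both without trend, and for Pprc1 with Ddx3y as a covariate. Nrf1, Gabpa and Yy1, whose motifs were searched above, had log2 differences of -0.17, -0.19 and -0.15 and did not pass (adjusted p = 0.266, 0.227 and 0.181).

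The proteins of the cytosolic ribosome and of complex I gave another picture in the same fit. Of 76 cytosolic ribosomal protein genes, 63 rose and 0 fell (82.9% called, beside 20% of all genes, median 0.37). Of 37 nuclear-encoded complex I genes, 7 rose and 0 fell (18.9% called, median 0.35). The difference was above 0 for 75 of 76 and 36 of 37 of these, beside 54 of the 78 mitochondrial ribosomal genes. The median standard error was 0.08 for the cytosolic and 0.18 for the complex I genes, and 0.23 and 0.25 for the large and small mitochondrial subunit. The median of the genes' mean reads was 3164, 194, 104 and 98.4 in the same order. The counts thus come from genes measured with unequal precision, and the differences between these groups of genes were not tested.

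**Figure D5:**
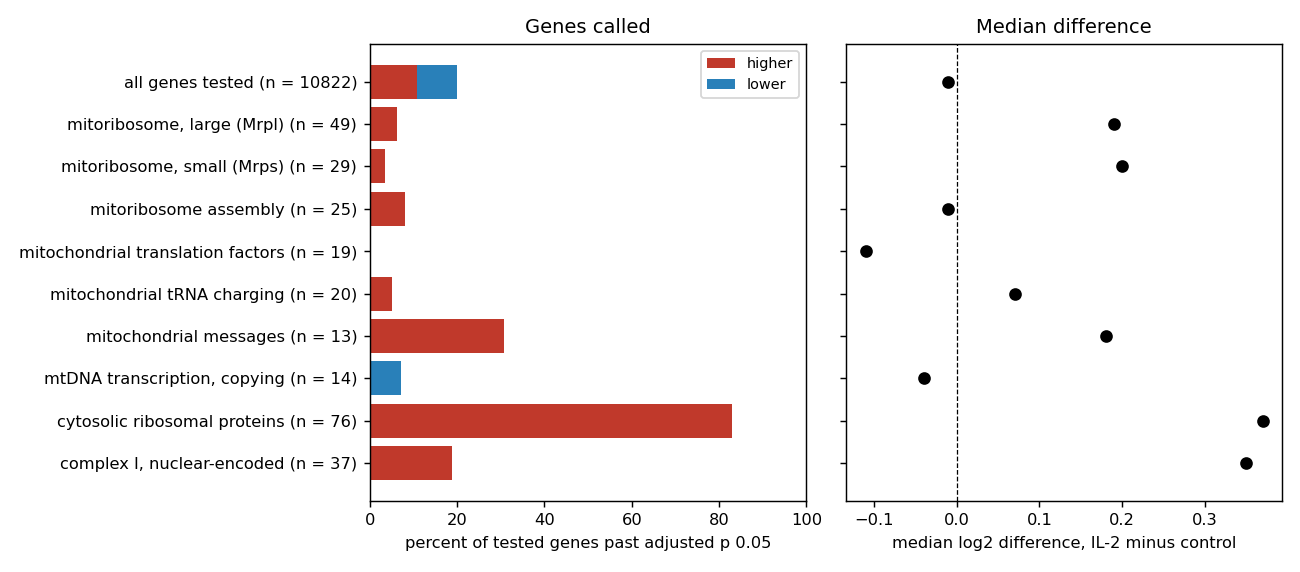
Percent of tested genes called higher (red) or lower (blue) at an adjusted p below 0.05 (left, x axis) and median log2 difference, IL-2 minus control (right, x axis), for all genes and for 9 gene sets with the number tested. Both mitochondrial ribosomal subunits lie under the 20% of all genes at left, and at 0.19 and 0.20 at right, between all genes (-0.01) and the cytosolic ribosomal proteins (0.37).

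The spread between libraries limits what could be seen gene by gene. The median coefficient of variation of a member was 20.8% in the IL-2 group and 21.4% in the control group, where counting error at these read numbers gives 9.4% and 10.3%. Of the 78 members, 57 had a 95% interval that lay within a 2-fold change in either direction, a log2 difference of -1 to 1, and 21 had an interval that reached beyond it. A member that did not pass is therefore not shown to be unchanged.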

How the data were processed

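Values of sorted splenic Tregs, 4 IL-2 and 4 control libraries, were deposited by the authors as 1 table of variance-stabilised expression on a log2 scale. The tools Salmon and DESeq2 and the build GRCm39 stand in the submitters' processing notes, while settings, annotation and filters were not found there. Total RNA was made into strand-specific libraries with a low-input kit, per the labels' protocols. Salmon divides shared reads by estimation, so genes with close copies (Mrpl23, Mrpl48 and Mrps36 have pseudogenes in the gene name table used) or overlapping exons are uncertain.

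To get normalised reads, the parametric stabilising formula was inverted; the lowest value, 8.69, stands for 0 reads and sets the scale. All 40 of the commonest values checked (5 per library) were whole multiples of 1 read within 0.001. Most other values were not whole, so no count test was run. All of the 4 libraries of each group differed from each other by more than counting error. Levels of different genes were not compared, since the transcript lengths used are unknown.

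Log2 of normalised reads plus 5 was fitted with limma (lmFit, eBayes with trend), IL-2 minus control, without covariates, for 10822 genes with a mean of at least 10 normalised reads over the 8 libraries. Adjustment over all of them followed Benjamini and Hochberg, with a threshold of 0.05. Intervals are unadjusted, at 95%. This fit was chosen over the deposited scale because 1 unit above the lowest value there equals 206 reads, more than most members have. Folds are ratios of group means.

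The members and lists were chosen with earlier results of these data known. Named by rule were members past the threshold (up to 8 higher and 4 lower per subunit), the 3 per subunit closest to 0 with at least 50 mean reads, the Mrps18 paralogs, Mrps30, Mrps36, Mrpl10, Mrpl11, Mrpl12, Mrpl45 and Mrpl58, the 5 subunits with other symbols, and up to 2 genes per direction and list. Other named genes, the comparison with cytosolic and complex I genes and the promoter motifs were chosen after values were seen. The alternatives were the deposited scale with a filter of 1 above the lowest value in 4 libraries or on the same genes, pseudocounts of 1 and 20, 3 other filters, 3 other scalings, 3 other variance models, the presence of Ddx3y as a covariate, and leaving out each library. GENCODE M21 and RefSeq tables of GRCm38 gave exon overlap and promoters, and no coordinates were carried between builds. The fits used limma 3.58.1 in R 4.3.3, and tables and figures pandas 2.3.3, matplotlib 3.10.9 and numpy 2.4.6 in Python 3.11.15.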

Additional observations from a re-analysis of the deposited data

Results flagged for a closer look

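Each named gene was looked at in both groups of 4 libraries, 98 groups in all, for a highest or lowest library whose gap to the nearest of the other 3 took up more of the group's whole range than Dixon's 95% critical value for 4 values. This picked out 2 groups, and chance gives about 1 in 20. Groups in which the other 3 libraries are themselves spread out, such as the controls of Mrpl11, do not meet it. Mrps30, a protein of the large subunit despite its symbol, had 252.3 reads in control library 46 and 189.2 to 195.2 in the other controls. Tars2, the threonine enzyme for mitochondrial tRNAs, had 159.6 reads in control library 45 and 263.5 to 283.1 in the other controls, and still passed without that library.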

How the results depend on the processing

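No paired analysis was possible because the groups share no replicate number. In all 22 alternatives were run, 14 of them other settings and 8 without 1 library each. On the deposited scale with its filter, 6 large-subunit and 3 small-subunit genes were tested, of which 1 (Mrpl52) and 0 were higher, where 31.4% of 5261 genes passed; that filter leaves out most members by its construction. Without trend, 3 small-subunit genes were higher (Mrps15, Mrps26 and Mrps7), and the cause was not tested. Without 1 library each, large-subunit genes called higher numbered 1 to 3 and called lower 0 to 1, and small-subunit genes called higher 1 to 2. Other counts stayed within 1.5 times. Signs turned only in genes close to 0 in the settings that kept all libraries. Mrpl1 was at -0.02 on equal library totals; Mrpl24 was at -0.01, -0.02 and -0.04 and Mrpl43 at -0.004, -0.00047 and -0.02 with quantile normalization, median centring and equal totals; Mrps23 was at 0.07 with Ddx3y as a covariate and Mrps9 at 0.02 with array weights. Without 1 library each, the log2 differences of the genes whose sign turned ran from -0.12 to 0.08 for Dap3, from -0.13 to 0.18 for Mrpl1, from -1.42 to 0.13 for Mrpl21, from -0.04 to 0.07 for Mrpl24, from -0.14 to 0.16 for Mrpl43, from -0.04 to 0.40 for Mrps18b, from -0.24 to 0.29 for Mrps23, from -0.29 to 0.14 for Mrps6, from -0.11 to 0.13 for Mrps9. Of 35 named genes that did not pass, 25 had a log2 difference that moved by over 1.5 times or changed sign when 1 library was left out, and of 14 that passed, 0 did. This contrast follows largely from the choice of genes and does not measure how firm the calls are. The rule named members closest to 0, where small shifts are large ratios, and genes that passed have differences that are large for their error. Of 1031 values of the 49 named genes under alternatives, 931 kept direction and call, 56 lost and 10 gained a call and 34 changed sign.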
